A study of Mus musculus with 4 samples.

Results

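Trp73, Apaf1, Casp2, Casp8, Casp9 and Cycs are death genes linked to the E2F transcription factors. They were read in control mouse pancreatic islets and in islets deficient in the retinoblastoma gene Rb1. The 6 genes were chosen by name for their role, and their probes were found through the RefSeq accession that the array files give for each probe. The match gave 11 of 56605 probes on the array, and all 6 genes had a probe that could be tested among 26379 tested genes. Control islets came from 2 mice of genotype Pdx1-Cre, called wild type in the sample titles although they carry the Cre transgene, and Rb-deficient islets from 2 mice of genotype Pdx1-Cre:Rbf/f. Both groups thus share the transgene and differ in the floxed Rb alleles. The Pdx1 promoter drives Cre in the pancreatic lineage, so that islet macrophages, vessels and other cells of other origin in the preparation would keep Rb1. Each array held RNA of 1 mouse. Strain, age and sex were not given in the sources used here.

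Rb holds E2F factors at the promoters of cell cycle genes, and loss of Rb frees them. E2F1 is also known to raise transcription of genes that kill cells. Trp73 encodes p73, a relative of p53 that comes in a full-length form (TAp73), which activates p53-type targets, and a form that lacks the activation domain (ΔNp73), made from an inner promoter, which blocks them. Cycs encodes cytochrome c, an electron carrier of mitochondria. Once released to the cytosol it binds Apaf1, the scaffold of the apoptosome, which recruits and activates the initiator caspase of Casp9. Casp8 encodes the initiator caspase of death receptors, and Casp2 an initiator caspase that is activated by the PIDDosome, also after failed cell division.

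The promoters of these genes were searched for the E2F consensus, because the genes were grouped for their link to E2F. The search used the 8-letter words TTTCCCGC, TTTCGCGC, TTTGCCGC and TTTGGCGC and the same words without the first T, on both strands, in RefSeq windows (GRCm38.p6) of 300 bases that reach from 250 before a transcription start to 50 after it. Every 8-letter match also holds a 7-letter match. An 8-letter word stood in 2.26% of all 32851 promoters and a 7-letter word in 9.57%. Among the members, an 8-letter word was found in Casp2 alone, and 7-letter words in Casp2 and in the upstream promoter of Trp73. The windows of Apaf1, Casp8, Casp9 and Cycs and the inner promoter of Trp73 held no such letters, which says nothing of E2F binding there. The windows that hold the words are printed here, with the inner promoter of Trp73, a later start of the same gene, for contrast. Capitals mark the words on either strand, and each sequence is given on the strand of its gene.
Trp73 upstream start, chr4:154139826-154140125, minus strand: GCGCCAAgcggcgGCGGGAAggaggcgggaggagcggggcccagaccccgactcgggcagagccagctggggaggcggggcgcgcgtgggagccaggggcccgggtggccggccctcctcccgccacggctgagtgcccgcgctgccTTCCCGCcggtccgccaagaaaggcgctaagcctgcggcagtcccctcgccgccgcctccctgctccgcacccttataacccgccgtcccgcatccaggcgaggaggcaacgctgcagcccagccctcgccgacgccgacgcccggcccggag
Trp73 inner start, chr4:154097124-154097423, minus strand: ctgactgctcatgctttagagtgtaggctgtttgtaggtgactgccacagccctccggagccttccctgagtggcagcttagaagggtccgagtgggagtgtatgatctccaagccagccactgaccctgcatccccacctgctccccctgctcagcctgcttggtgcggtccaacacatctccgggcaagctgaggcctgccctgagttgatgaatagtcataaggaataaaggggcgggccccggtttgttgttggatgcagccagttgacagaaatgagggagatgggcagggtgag
Casp2 start, chr6:42264735-42265034, plus strand: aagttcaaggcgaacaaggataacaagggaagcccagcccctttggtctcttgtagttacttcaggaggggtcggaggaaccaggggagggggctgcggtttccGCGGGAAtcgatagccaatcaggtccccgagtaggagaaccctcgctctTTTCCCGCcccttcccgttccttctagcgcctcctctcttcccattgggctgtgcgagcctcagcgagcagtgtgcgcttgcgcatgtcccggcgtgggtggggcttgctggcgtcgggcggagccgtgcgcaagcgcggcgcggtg

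In Casp2 the last 7 letters of the 8-letter word lay from base -96 to base -90 relative to the start, and a further 7-letter word lay on the other strand from -146 to -140. In the upstream promoter of Trp73 the 3 words lay at -250 to -244, -237 to -231 and -103 to -97. The base composition of the windows differs too, with 77.7% G and C in the upstream window of Trp73, 63.7% in Casp2 and 42.0% in Casp8, against a median of 52.7% over all promoters. Of the 16 genes with a promoter in the list of activator E2Fs and G1/S targets, 9 held an 8-letter word.

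**Figure D1:**
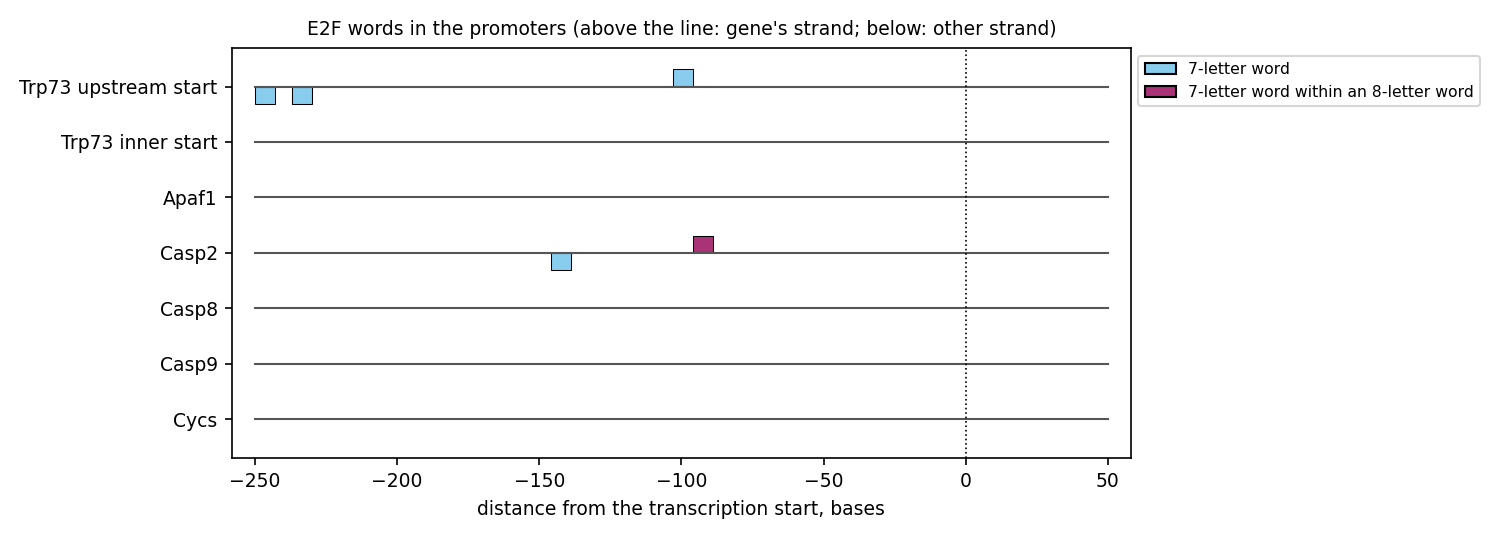
Positions of the E2F words in the 7 promoter windows of the 6 genes, with distance from the transcription start in bases on the x axis. Boxes above a line lie on the gene's strand and boxes below it on the other strand, and only the upstream window of Trp73 and the window of Casp2 hold any.

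The arrays were uneven before any gene is considered. Of all probes, 76.5% were well above background (the scanner software's own call) on control array 1 and 59.0% to 59.9% on the other 3. The 4 Y-linked genes examined were well above background on control array 1 only, and Xist on the other 3 only. That is the pattern of a male on control array 1 and of females on the others, so the control group mixed the sexes. Only the fit without control array 1 compares arrays alike in this, and the part of sex in the differences was not tested. Values are given below as log2 signal relative to each array's 75th percentile, and differences are Rb-deficient minus control. Rb1 itself, which the floxed alleles target, had 0.28 and 0.86 in control and -0.48 and -0.90 in Rb-deficient islets by 1 probe, and -2.23, -2.11, -3.35 and -4.10 in the same order by the other. The groups did not overlap by either probe, with unadjusted p 0.0155 and 0.00889, but neither passed the test (limma with Benjamini-Hochberg adjustment over all probes, adjusted p 0.744 and 0.655), and whether they lie in the deleted part is not known here. The islet markers Ins1, Ins2, Iapp, Gcg, Sst, Ppy, Pdx1 and Chga were well above background on all arrays. In islets measured in bulk, fewer cells of a type and less RNA per cell cannot be told apart.

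None of the 6 genes differed between the groups by more than the test allows. limma called 0 of 26379 genes at an adjusted p under 0.05 (Benjamini-Hochberg), or 0%, and had 1493 genes at an unadjusted p under 0.05, which is 5.66% (1.48% higher and 4.18% lower in Rb-deficient islets), with none of the 6 among them. By the brightest probe of each gene, mean signal was higher in Rb-deficient islets for 5 of 6, all but Trp73, where 41.9% of all genes tested were higher. Casp9 is among the 5 by that probe only, since its dimmer probe and the mean of both were lower, and without it 4 of the 6 were higher. The groups did not overlap for Casp2, higher, for Trp73, lower, and for Casp9, higher by its brighter probe and lower by its dimmer one. These are 3 of 6, where 36.0% of all genes did not overlap, 15.3% higher and 20.7% lower. With 2 arrays against 2, the smallest p an exact two-sided permutation test of 1 gene can give is 0.33, so that test was not used.

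Trp73 was the member farthest from equality. Its brightest probe gave -0.74 and -1.38 in the 2 control mice against -1.58 and -1.94 in the 2 Rb-deficient mice. Both Rb-deficient values lay below both control values, but Rb-deficient array 1 differed from control array 2 by -0.20 only, while the controls lay 0.64 apart. The control mean was -1.06 ± 0.45 (SD, n = 2) and the Rb-deficient mean -1.76 ± 0.25 (SD, n = 2), a difference of -0.70 with a standard error of 0.32 and a 95% interval of -1.59 to 0.19. That is 1.62-fold lower, at an unadjusted p of 0.0941 and an adjusted p of 0.863 in limma (Benjamini-Hochberg). Of all genes tested, 15.0% were lower by at least as much. Leaving out control array 1, the only array with Y-linked genes well above background, brought it to -0.38. Leaving out control array 2 brought it to -1.02, so the size depends on which control is kept while the direction does not. The processed signals behind these values were 216, 158, 122 and 128 intensity units in the order above, each with a scanner error of about 10%, and the dimmest signals called well above background were between 9.52 and 11.1 units.

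The other Trp73 probes carried little signal. The second was well above background on control array 1 alone, at -3.24, and stood at -7.39, -7.42 and -6.19 on the others. The third was not well above background on any array, at -5.77 on control array 1 and between -7.46 and -7.22 on the rest. Neither was tested, and control array 1 was the highest for all 3 probes. The files do not say which of the full-length and ΔN forms each probe reads.

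**Figure D2:**
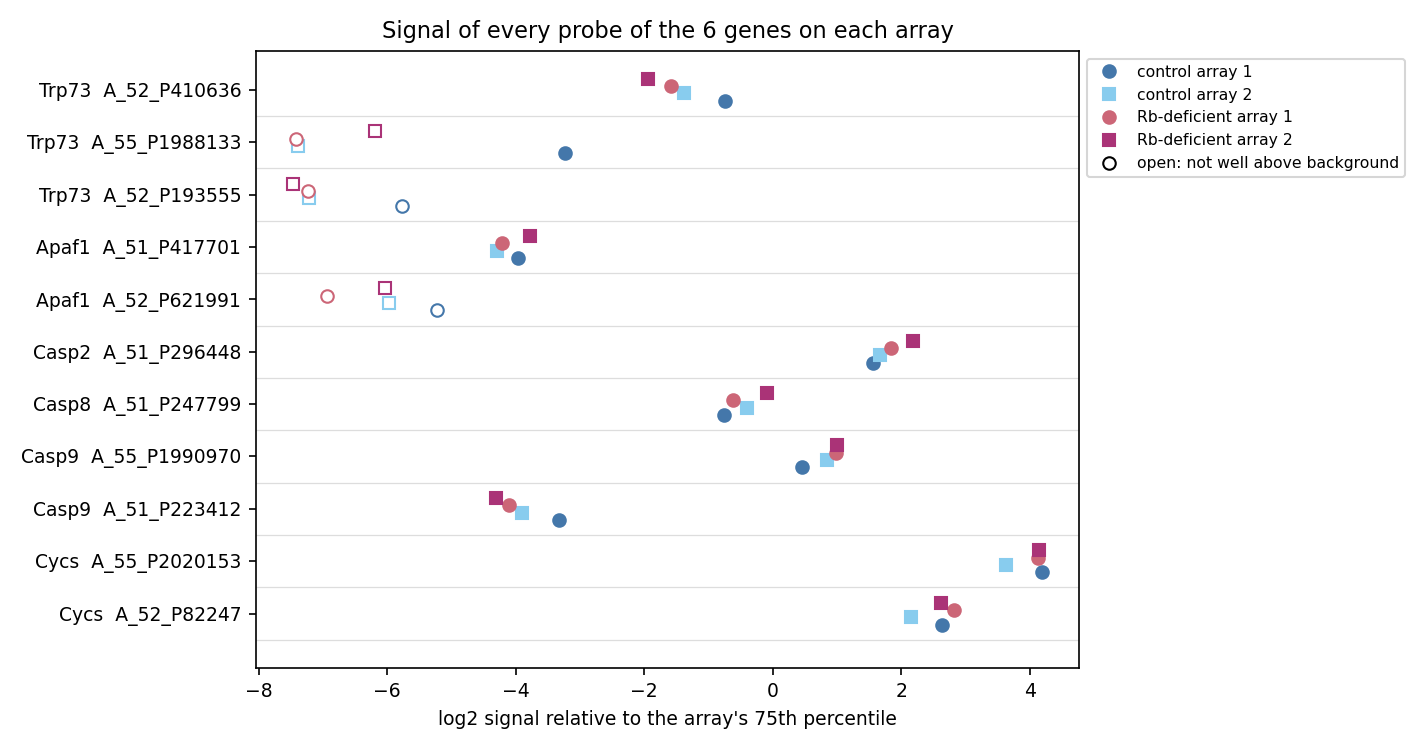
Log2 signal relative to the array's 75th percentile (x axis) for each of the 11 probes of the 6 genes (y axis, gene and probe name), with 1 point per array. Open points were not well above background, which holds for the last Trp73 probe and the second Apaf1 probe on every array and for the second Trp73 probe on all but control array 1.

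Of the apoptosome genes, Apaf1 was close to background. Its brighter probe read -3.97 and -4.29 in control islets and -4.21 and -3.78 in Rb-deficient islets. The highest and the lowest of these belong to Rb-deficient array 2 and control array 2, and the groups overlap. They differed by 0.13 on average (standard error 0.26) with a 95% interval of -0.60 to 0.86 (limma adjusted p 0.910, Benjamini-Hochberg), and it turned to -0.028 without control array 2 and to -0.079 without Rb-deficient array 2. It was 0.87 with quantile normalization and 0.0029 with normexp background correction, so its size depends on that choice. Processed signals were 19.7 to 35.5 units, which is 2.07 to 3.20 times the dimmest signal called well above background on the same array, and the scanner error was 12.8% to 16.7% of the signal. The second Apaf1 probe was not well above background anywhere, at -5.22 to -6.94. The 95% interval covers both lower and higher levels of the scaffold's transcript in Rb-deficient islets. It is not a limit of detection, since limma called no gene in this fit, whatever the size of its difference.

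Cycs, the cytochrome c gene, was measured far above background by both of its probes. The brighter read 4.19 and 3.62 in control islets and 4.13 and 4.14 in Rb-deficient islets. Control array 2 stood below the other 3, which lay close together, and the groups overlapped. The mean difference of 0.23 (standard error 0.27, 95% interval -0.52 to 0.98, limma adjusted p 0.871 with Benjamini-Hochberg adjustment) turned to -0.050 without that array. The other probe gave 2.63, 2.15, 2.83 and 2.61 in the same order, a difference of 0.33 with a standard error of 0.25, again with control array 2 the lowest. The probes thus ranked control array 2 alike and differed in which array was highest. Cyct, the testis form of cytochrome c, was well above background on 2 of the 4 arrays, 1 of each group, and was not tested. Processed copies of Cycs are common in the genome, and signal from them cannot be told from that of the gene here.

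Casp9, the caspase that the apoptosome activates, gave opposite answers by its 2 probes. The brighter read 0.46 and 0.84 in control islets and 0.98 and 1.00 in Rb-deficient islets. Both Rb-deficient values lay above both controls, by 0.14 from the nearer one. The control mean of 0.65 ± 0.27 and the Rb-deficient mean of 0.99 ± 0.018 (SD, n = 2 each) differed by 0.34 with a standard error of 0.22, a 1.27-fold difference with a 95% interval of -0.28 to 0.96 on the log2 scale (limma adjusted p 0.863, Benjamini-Hochberg). The dimmer probe read -3.33, -3.90, -4.10 and -4.31, with both Rb-deficient values below both controls. Of all 33846 probes tested, 14.8% lay apart upward like the brighter probe and 21.3% downward like the dimmer one. Its difference was -0.59 with a standard error of 0.28 (limma adjusted p 0.863 over all probes, Benjamini-Hochberg), and turned to 0.0018 with quantile normalization. Its signals were 2.22 to 3.67 times the dimmest signal called well above background. Averaged over both probes, Casp9 differed by -0.13. Control array 1 was the lowest array by the brighter probe and the highest by the dimmer one. Neither probe passed the test, and no direction can be given for the gene.

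Of the 6 genes, Casp2 had the highest mean difference. Its single probe read 1.57 and 1.67 in control islets and 1.84 and 2.18 in Rb-deficient islets. Both Rb-deficient values exceeded both controls, which lay 0.11 apart. The means were 1.62 ± 0.075 and 2.01 ± 0.24 (SD, n = 2 each), and the difference of 0.39 had a standard error of 0.21 and a 95% interval of -0.22 to 1.00. This 1.31-fold difference had an unadjusted p of 0.148 and an adjusted p of 0.863 in limma (Benjamini-Hochberg), and 7.55% of all genes were higher by at least as much. With single arrays left out it ranged from 0.22 without Rb-deficient array 2 to 0.56 without Rb-deficient array 1, and the Rb-deficient mice lay 0.35 apart. Of its partners in the PIDDosome, the scaffold gene Pidd1 differed by -0.066 and the adaptor gene Cradd by 0.27. Their standard errors were 0.23 and 0.31, and the groups overlapped for both. A dimmer probe of Pidd1 differed by 0.68, with -3.43 and -3.54 in control and -2.91 and -2.70 in Rb-deficient islets, which do not overlap (limma adjusted p 0.790 over all probes, Benjamini-Hochberg). The mean of both Pidd1 probes differed by 0.31, so the sign depends on the probe.

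Casp8, of the death receptor arm, read -0.76 and -0.39 in control and -0.61 and -0.094 in Rb-deficient islets by its single probe. Rb-deficient array 1 lay between the controls and only Rb-deficient array 2 lay above both. The mean difference of 0.22 had a standard error of 0.29 and a 95% interval of -0.59 to 1.03 (limma adjusted p 0.877, Benjamini-Hochberg). It turned to -0.036 without Rb-deficient array 2 and was 0.48 without Rb-deficient array 1.

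**Figure D3:**
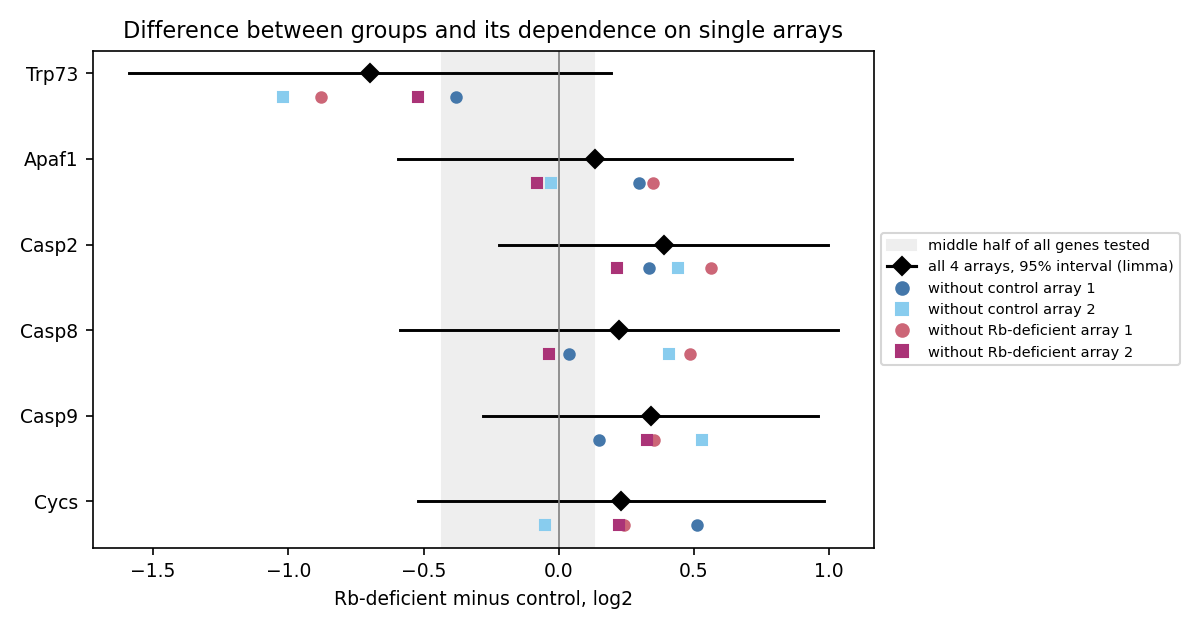
Difference between Rb-deficient and control islets on the log2 scale (x axis) for the 6 genes (y axis), as diamonds with 95% intervals from limma, and coloured points for the fit without 1 array. All 6 intervals span 0, and with 1 array left out Apaf1, Casp8 and Cycs have values on both sides of 0 while Trp73, Casp2 and the brighter Casp9 probe do not.

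The 2 Rb-deficient arrays did not depart equally from the control mean. On array 1 Casp2, Casp8 and Apaf1 stood at 0.22, -0.036 and -0.079 from it and on array 2 at 0.56, 0.48 and 0.35. By their brighter probes Casp9 stood at 0.33 and 0.35 and Cycs at 0.22 and 0.24, nearly the same on both. By their dimmer probes Casp9 stood at -0.49 and -0.69 and Cycs at 0.44 and 0.22. Markers of macrophages and dendritic cells were uneven in the same order as the first 3 genes. Of the 14 such markers tested 13 were higher in Rb-deficient islets, with medians of 0.29 and 1.23 above the control mean on arrays 1 and 2, and their summed signal, in multiples of the 75th percentile, was 48.8 and 47.6 in control islets and 54.1 and 48.5 on Rb-deficient arrays 1 and 2. That sum was thus higher on array 1, but its largest part on every array is a single probe of Itgam. The probe read 5.15 and 5.05 in control and 5.23 and 4.43 in Rb-deficient islets, while the gene's other probe lay between -1.31 and -1.03. Itgam was also the 1 marker of the 14 that was lower, so the order of the sums rests on that probe. All 14 were well above background on all 4 arrays. Acinar markers went the other way, 10 of 10 lower, with medians of -0.22 and -1.0 and summed signals of 9065 and 7402 in control and 6879 and 4108 in Rb-deficient islets. Islet endocrine markers had medians of -0.0066 and -0.43, with 6 of 8 lower, and ductal markers -0.34 and -0.47, with 6 of 7 tested lower. Stromal markers had medians of -0.62 and 0.55, with 3 of 7 tested higher. Endothelial markers had medians of -0.035 and 0.37, with 7 of 8 higher. Among T, B and NK cell markers 4 of 6 tested were higher and Cd8a was not well above background on any array. The part of these cells in the differences of the 6 genes was not tested.

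**Figure D4:**
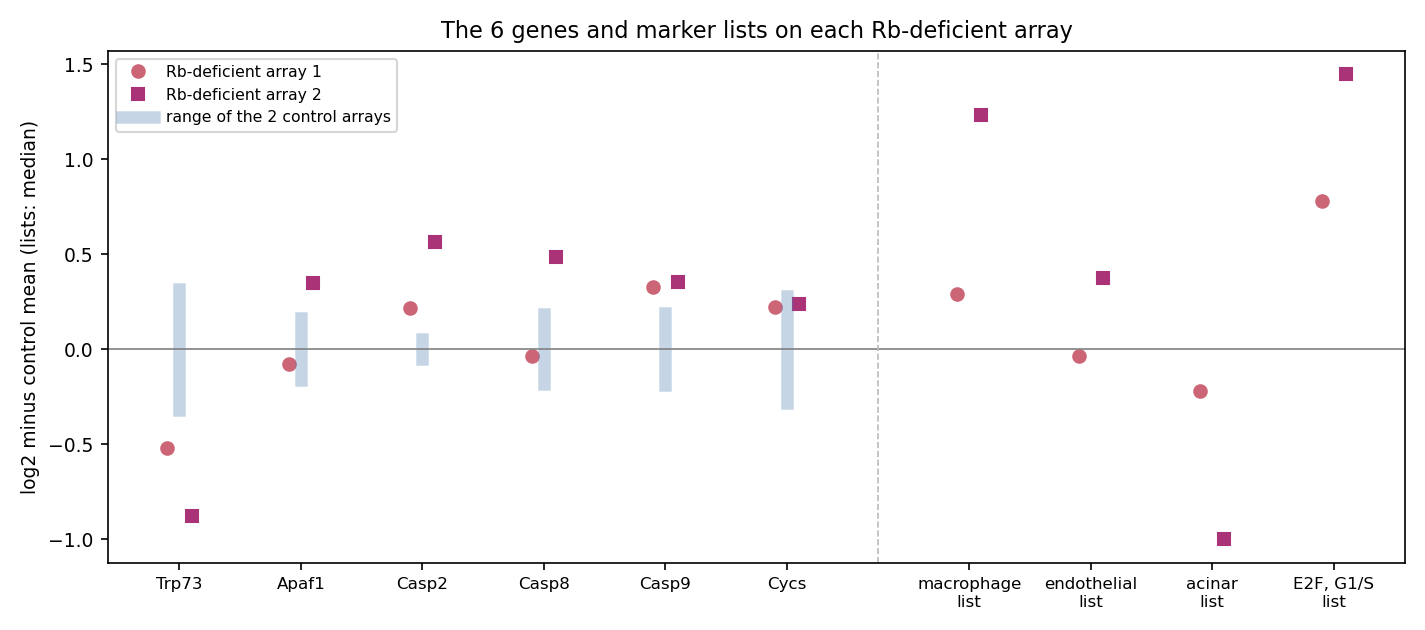
Distance of each Rb-deficient array from the control mean on the log2 scale (y axis) for the 6 genes and, right of the dashed line, the median distance of 4 gene lists. Pale bars span the 2 control arrays. Rb-deficient array 2 lies farther from 0 than array 1 for all 4 lists and all 6 genes, by little for Casp9 and Cycs. Each gene is shown by its brightest probe.

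Other genes of the death pathways were described by lists chosen with earlier results of these data known, none of whose members passed limma's adjusted threshold. The median difference of all genes tested was -0.07, against 0.23 for the 6 genes. With the arrays scaled on their medians instead, every difference was 0.44 higher, the median of all genes was 0.37, and every list median that follows was above 0. Of mitochondrial death factors and their targets, Htra2, a mitochondrial protease, differed by -0.26 and the DNA repair enzyme gene Parp1, a caspase substrate, by 0.15.

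Inhibitors of apoptosis had a median of 0.051, and 3 of the 5 were higher. The median ranged from -0.13 with the mean of a gene's probes to 0.49 with scaling to the array median. Birc5, which encodes survivin and is best known as a subunit of the mitotic chromosomal passenger complex, was 3.70-fold higher, with -1.88 and -2.99 in control against -0.89 and -0.21 in Rb-deficient islets (limma unadjusted p 0.0211, adjusted p 0.788, Benjamini-Hochberg). Birc3, Birc2 and Birc6 differed by -0.23, -0.13 and 0.11, the last with 2 other probes at -0.093 and -0.025. Death receptor genes had a median of 0.19 with 10 of 13 higher. Tnfrsf10b, the receptor of the ligand TRAIL, read -2.52 and -2.00 in control and -1.14 and -0.49 in Rb-deficient islets by 1 probe. Its other probe differed by 0.15. Ripk3, the kinase of necroptosis, was 1.96-fold higher but dim, at -4.61 and -4.20 in control and -3.92 and -2.95 in Rb-deficient islets. The Ripk3 difference of 0.97 was 0.23 with normexp background correction and 1.86 with quantile normalization. Tnfrsf1a, the main receptor of TNF, differed by 0.52 and Tnfsf10, the gene of TRAIL, by 0.64.

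Caspases of inflammation and their partners had a median of 0.44 with 8 of 9 higher, at -0.12 on Rb-deficient array 1 and 1.02 on array 2, uneven in the same order as the macrophage markers given above, whose part in this was not tested. Pycard, the inflammasome adaptor, differed by 0.63, Gsdmd, the pore protein of pyroptosis, by 0.98, Casp1 by 0.62 and Casp4 by 0.45. The p53 family and its partners had a median of -0.0091 with 5 of 10 higher, and Yap1, a coactivator of p73, differed by -0.37. Yap1 read 0.50 and -0.041 in control and -0.20 and -0.071 in Rb-deficient islets, and differed by -0.096 without control array 1. Trp53, chosen after its values were seen, differed by -0.032. The ASPP2 gene Trp53bp2 differed by -0.20, Mdm4, an inhibitor of p53, by -0.31 and Trp63 by -0.26. Respiratory chain companions of Cycs lay between -0.043 and 0.23 with a median of 0.069, 6 of 9 higher, and Uqcrc2 and Ndufs1, subunits of complexes III and I, differed by 0.23 and 0.20.

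Further death genes linked to E2F had a median of 0.30, with 7 of 9 higher. That median depended on the processing, from -0.0091 with the mean of a gene's probes to 0.74 with scaling to the array median. Cdkn2a, the locus of Arf, led these genes with -3.15 and -3.03 in control against -0.55 and 1.24 in Rb-deficient islets. Siva1, a proapoptotic partner of death receptors, was 1.55-fold higher by one probe and 1.44-fold by the other, with all Rb-deficient values above all controls in both (limma adjusted p 0.863, Benjamini-Hochberg). Bcl2l11 and Pmaip1, BH3-only killers of the Bcl-2 family, differed by 0.45 and 0.40. However, the 3 other probes of Bcl2l11 differed by 0.095, -0.64 and -0.92. Pmaip1 was dim, at -3.56 and -3.72 in control and -2.98 and -3.51 in Rb-deficient islets. Its difference was 0.15 with normexp background correction and 0.97 with quantile normalization. The activator E2Fs and G1/S targets had a median of 1.10, with 17 of 17 tested genes higher and 12 at an unadjusted p under 0.05. E2f1 read -0.43 and -0.15 in control and 0.59 and 0.87 in Rb-deficient islets, and Mcm3, Mcm6 and Cdt1, which license replication origins, differed by 2.77, 2.50 and 1.97. By the brightest probe of each, Apaf1, Casp2, Casp8, Casp9 and Cycs differed by 0.13 to 0.39. Apaf1 lay just below the 0.14 to 2.77 spanned by the E2F and G1/S list, and the others at its low end. Trp73 at -0.70 and the dimmer probe of Casp9 at -0.59 lay below that span. The difference of the 6 genes from the list was not tested.

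**Figure D5:**
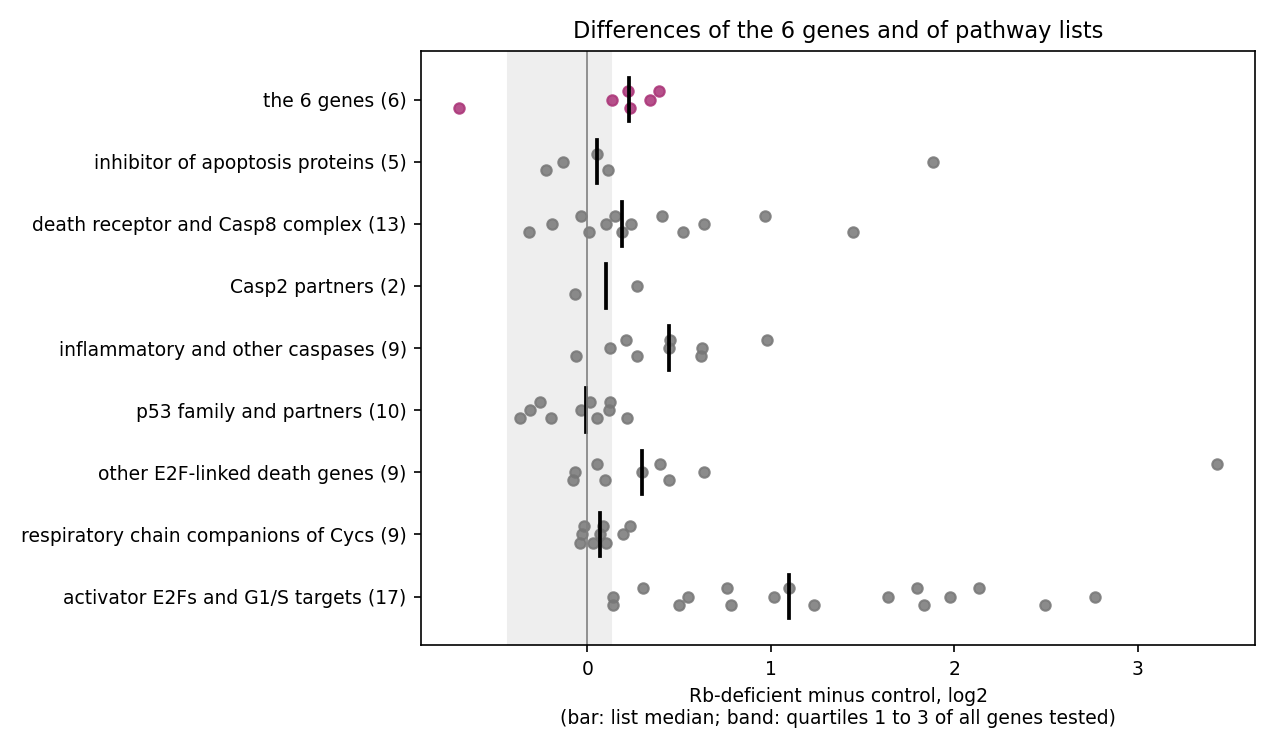
Difference between Rb-deficient and control islets on the log2 scale (x axis) for each tested gene of the 6 and of 8 lists (y axis, number tested in brackets), with a bar at each list's median and a band between the quartiles of all genes tested, from -0.43 to 0.13. The E2F and G1/S list has a median of 1.10 and the other lists medians between -0.0091 and 0.44.

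The gene of these lists whose 4 values, each gene centred on its own mean, lay nearest to a member was sought among 84 tested entries. For Casp2 it was Ccne1, the cyclin E1 gene, at a root mean square distance of 0.086 and a Pearson r of 0.97 over the 4 arrays, and for Casp8 it was E2f2, at 0.051 and 0.98. Ccne1 read 0.18, 0.29, 0.65 and 0.92 and E2f2 -0.33, 0.092, -0.20 and 0.25. For Casp9 it was the kinase gene Abl1 (0.077, by the brighter of its probes), for Apaf1 the mitochondrial nuclease gene Endog (0.10), for Cycs the cytokine gene Tnf (0.12) and for Trp73 the gene Mdm4 (0.22). With 4 arrays that share their scaling, such likeness is a description only.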

How the data were processed

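The authors deposited 1 scanner file per array. The processed intensity came from Feature Extraction 12.0.3.1, per the file headers, and is on each array's own scale. The array design names mm9. Per the labels, the material was labelled with Cy3 in a single colour. The deposited value table of the series holds the same intensity times 1 constant per array (1.74 to 2.49, column medians 157 to 220, linear and not centred, with the statistic behind the constants unknown) and served as an alternative only. All 4 arrays lay on 1 slide, and no spot was saturated.

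Control spots and spots marked as outliers were left out, spots of a probe averaged, and log2 intensity minus the array's 75th percentile of non-control spots was used. A probe was kept if both arrays of either group showed it well above background, which kept 33846 probes and 8 of the 11 member probes. The brightest kept probe stood for a gene. RefSeq accessions without version named 32994 of 56605 probes, with table assembly GRCm38.p6, and coordinates given belong to its promoter windows. limma 3.58.1 in R 4.3.3 (lmFit, eBayes, two-sided, no covariates; 2 residual and 1.82 prior degrees of freedom) was fitted to all genes and, for single probes, to all probes, with Benjamini-Hochberg adjustment and a threshold of 0.05. With 2 arrays a group, their number limits the precision. On simulated data with the spread of these arrays the fit recovered the sizes of added differences but called none of them, so the lack of calls does not show equal levels. Whether p-values measure more than the spread between these mice is not known.

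The genes, the lists and the rule for named genes were chosen with earlier results of these data known. Named are the 6 members, Rb1, at most 4 genes of each list with the smallest p, and the nearest gene by pattern. The lists were described by counts and medians, without tests. Alternatives were normexp background correction on median spot signals with an offset of 50 (the files hold no mean signal), quantile normalization, the array median, the value table, 2 other filters, the mean of probes, the replicate number as a block and each array left out. Some list genes are not reported here.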

Additional observations from a re-analysis of the deposited data

How the results depend on the processing

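limma (Benjamini-Hochberg) called none of the 6 genes under any of the 12 alternatives run, with adjusted p values of 0.261 or more. Over all genes it called 0 in the main setting, 480 (234 higher, 246 lower) with scaling to the array median, where limma gave every gene the same variance, and from 0 to 4091 with 1 array left out, the latter without control array 2, and 0 under the other alternatives. At an unadjusted p under 0.05 in limma there were 1493 genes in the main setting. Trp73 and Casp2 kept their direction under all 12, with differences from -1.02 to -0.26 and from 0.22 to 0.83. The upper end of each range is the value with scaling to the array median, which adds 0.44 throughout. Several of the 12 could not move these differences. Each of these genes has 1 kept probe, its brightest, well above background on all 4 arrays, so the other filters and the mean of probes return the main values. The value table shifts all differences alike. With 1 array left out the difference ranged from -0.079 to 0.35 for Apaf1, from -0.036 to 0.48 for Casp8 and from -0.050 to 0.51 for Cycs. Under the other alternatives it ranged from 0.0029 (normexp) to 0.87 (quantile normalization) for Apaf1, from 0.20 to 0.66 for Casp8 and from 0.18 to 0.67 for Cycs. Casp9 was -0.13 with the mean of its probes, and its dimmer probe 0.0018 with quantile normalization. The cause of these turns was not tested, beyond the opposed probes of Casp9. Same-numbered arrays deviated together only weakly (correlation 0.30 over genes), and the labels tie the numbers to nothing shared. With the replicate number as a block, limma called 0 genes and had 3161 at an unadjusted p under 0.05. The differences of the 6 genes stayed at their values, which a balanced block cannot change. Slide could not be fitted as a block, since there was 1 slide. Signal near background limits Apaf1 and the dimmer probes of Trp73 and Casp9. The alternatives for list medians were added after seeing the data, and none of those medians carries a test.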

Other observations

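Trp63, the third member of the p53 family, gave 4.40 and 4.47 in control and 4.39 and 3.96 in Rb-deficient islets by the probe that was tested, while its other probe lay between -7.57 and -7.32 and was not well above background on any array. Fasl, the ligand of the receptor Fas, was well above background on control array 2 alone, at -2.68, and stood at -5.02 on control array 1 and at -7.35 and -7.41 on the Rb-deficient arrays. Hrk, another BH3-only gene linked to E2F, was well above background on 1 array by one probe and on none by the other.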
